A study of Mus musculus with 24 samples.

Results

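The knockout effect of Mrs2 was compared between liver and inguinal white adipose tissue (iWAT, a fat depot under the skin) in mice fed chow, over the 11964 genes, of 54532 in the deposited table, whose mean expression reached 0.5 FPKM over the chow libraries of each tissue. FPKM is the fragment count of a gene scaled to its length and to the size of the library. A further 1739 genes reached that level in liver only and 2750 in iWAT only, and were not part of the comparison. Mice lacking Mrs2 (KO) or not (WT) were 13 weeks old when the diet period began and ate standard chow for 52 weeks. RNA came from 50 mg of whole liver or 100 mg of whole iWAT, which had been freed of lymph nodes. Each of the 4 groups held 3 libraries, described in the labels as biological replicates (mice), so that 12 of the 24 libraries of the series entered. The labels do not say how the Mrs2 allele was made, in which cells it acts, or the strain and sex of the mice, and p-values here measure the spread between these libraries.

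Mrs2 forms the channel that carries magnesium across the inner mitochondrial membrane, and magnesium in the matrix serves as a cofactor of ATP and of several dehydrogenases. Liver and fat use their mitochondria differently. Hepatocytes oxidise fatty acids and make glucose and ketone bodies, whereas white adipocytes mainly store triglyceride, and beige adipocytes, which can arise within iWAT, burn fatty acids for heat with a set of genes shared with brown fat. For each gene the liver effect is KO minus WT on the log2(FPKM + 1) scale in liver, the iWAT effect is the same in iWAT, the contrast is the liver effect minus the iWAT effect, and the shared effect is their mean. On this scale the change of genes near 0 is understated.

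Recovered reads numbered 15276070 to 19538975 per library in liver and 15998298 to 20354594 in iWAT. Hepatocyte markers averaged 10.2 to 10.5 on the log2(FPKM + 1) scale in the livers and 1.07 to 1.48 in iWAT, and adipocyte markers 6.67 to 7.38 in iWAT and 3.04 to 3.28 in liver. Markers of other tissues stood high in single libraries: pancreas acinar markers stood at 6.17 in KO liver 1 and at 0.353 or less in the other 11 libraries, muscle markers at 2.86 in WT liver 3, 2.45 in WT iWAT 2, 1.73 in KO iWAT 1 and 1.32 in KO liver 2 against 0.282 to 1.15 in the other 8, and lymphocyte markers at 4.82 and 4.75 in the iWAT libraries numbered 3 of WT and KO against 2.67 to 3.49 in the other 4. In bulk tissue, fewer cells of a type and less RNA per cell cannot be told apart. Libraries of equal genotype and number also resembled each other across the tissues. In 77 genes the 6 libraries of each tissue fell into 2 levels more than 4-fold apart, and in 34 of these the same numbers lay on the same side in liver and in iWAT, a check chosen after seeing the data. Of the 34 genes, 20 were pseudogenes and 10 protein-coding. Rpl29, a cytosolic ribosomal protein gene, stood at 96.3, 0.613 and 0.432 FPKM in WT livers 1 to 3 and at 98.9, 1.06 and 0.55 in WT iWAT 1 to 3, and at 43.5 to 54.3 in all 6 KO libraries. H2-Ea-ps, a class II histocompatibility pseudogene, reached 22.5 and 11.1 FPKM in KO livers 1 and 2 and 62.7 and 72.1 in KO iWAT 1 and 2, against 0.282 or less in the other 8 libraries. The labels do not state whether equal numbers came from 1 mouse, and the main tests took the 12 libraries as independent.

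Mrs2 (ENSMUSG00000021339, chr13:24987483-25020379, minus strand, mm10) was lower in the KO libraries of both tissues. In WT livers it stood at 6.26, 5.87 and 6.50 FPKM and in KO livers at 3.90, 4.47 and 4.16. WT iWAT held 4.48, 4.67 and 3.87 FPKM, and KO iWAT 2.05, 1.74 and 2.25. KO and WT did not overlap in either tissue, yet every KO library kept a signal of 1.74 FPKM or more, and values per gene cannot tell which exons those reads came from. The shared effect was -0.65 ± 0.07 (SE, n = 3 per group; limma adjusted p = 0.018), and its exact two-sided permutation p over the 400 relabellings within tissues was 0.005, the smallest they allow. With liver and iWAT of equal genotype and number relabelled together, a test added after seeing the data, it was 0.1, the smallest that 20 relabellings allow. The effect was -0.48 ± 0.10 in liver and -0.82 ± 0.10 in iWAT. The contrast of 0.35 ± 0.14 did not pass (limma unadjusted p = 0.0275, adjusted p = 1). Its exact permutation p was 0.47 with the tissues relabelled apart, and 0.1, the smallest possible, with equal numbers relabelled together. Relabelling the tissues apart assumes no effect in either, so the 0.47 cannot tell whether the effects are equal. Part of Mrs2 overlaps Gpld1 of the opposite strand, which stood at 75.1 ± 5.28 FPKM (SD, n = 3) in WT liver and 1.38 ± 0.389 in WT iWAT. In KO it stood at 65.6 ± 1.80 in liver and 1.09 ± 0.274 in iWAT. The KO livers (64.5, 64.7 and 67.7) lay below the WT livers (75.5, 80.2 and 69.6). Strandedness of the counting is not given in the sources used here, so reads of these genes cannot be told apart where they overlap. The part of Gpld1 reads in the Mrs2 values was not tested. By limma with the animal (genotype and number) as a block across the tissues, no gene passed for the shared effect (smallest adjusted p = 0.131), nor did any in iWAT with tissue and number as a block (0.0812).

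The 10 named genes with a contrast below 0 were Elovl3, Gk, Hadhb, Pkm, Hadha, Cox7a1, Chchd10, Cycs, Acadvl and Mpc1, most of them genes of fatty acid oxidation, the respiratory chain or thermogenesis. Each was higher in KO than in WT iWAT without overlap, and had a liver effect between -0.53 and 0.29. No gene passed the threshold for the contrast by limma (0% of 11964 called, smallest adjusted p = 0.609), with 351 genes (2.93%) at an unadjusted p under 0.05, of which 199 (1.66%) lay below 0 and 152 (1.27%) above. The median standard error of a contrast was 0.21 on the log2 scale. edgeR's quasi-likelihood test on the recovered reads also called 0 genes (smallest adjusted p = 0.0672, Gk), and DESeq2 called 16 (0.134%). Of these 16, 15 had a contrast below 0, among them Elovl3, Gk, Cox7a1, Hadha, Hadhb, Acadvl, Cycs, Chchd10, Mpc1, Pgk1 and Pkm. In iWAT alone 17 genes (0.142%) were called by limma, 16 higher (0.134%) and Mrs2 lower (0.00836%), with 653 (5.46%) at an unadjusted p under 0.05. In liver alone 0 were called, with 517 (4.32%) at an unadjusted p under 0.05, 277 (2.32%) higher and 240 (2.01%) lower. In iWAT edgeR called 38 genes (0.318%) and DESeq2 154 (1.29%), and in liver edgeR called 0 and DESeq2 9 (0.0752%). The iWAT calls depended on single libraries: 0 were called when KO iWAT 1 or any of WT iWAT 1, 2 and 3 was left out, and 1 when KO iWAT 2 or any KO liver was.

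**Figure D1:**
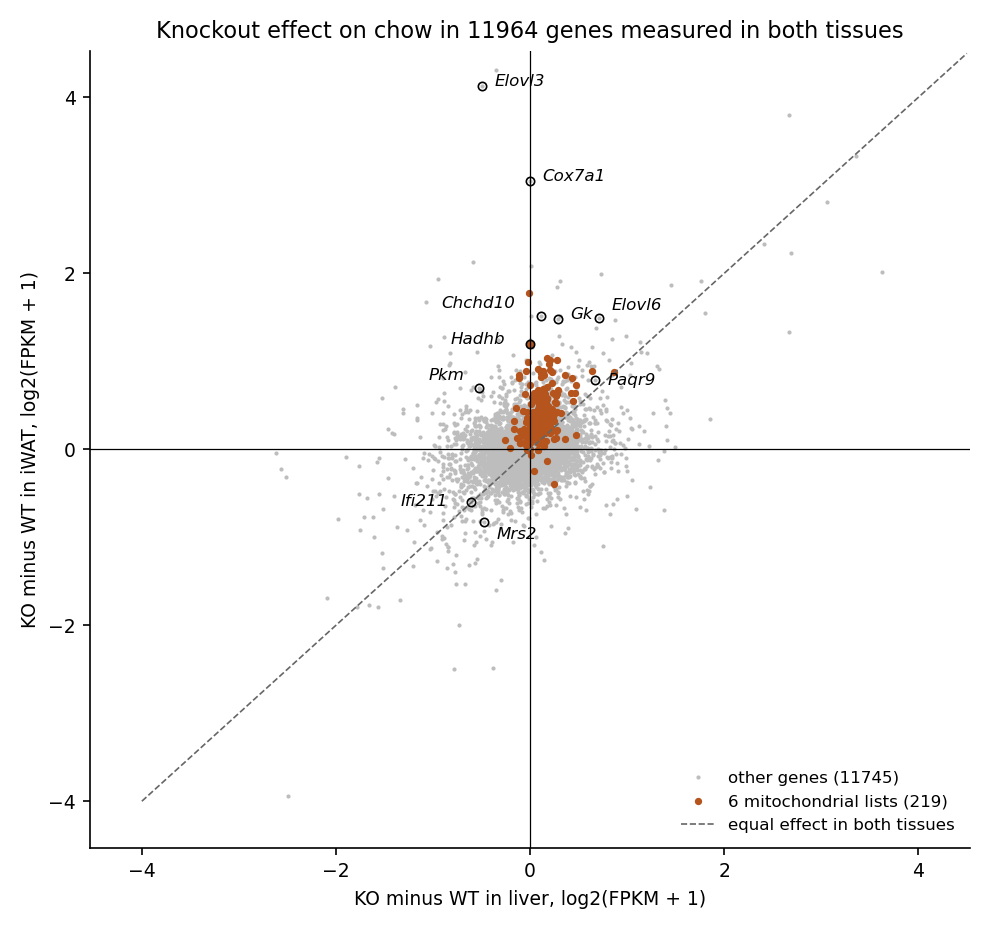
Knockout effect in iWAT (vertical axis) against that in liver (horizontal axis), both KO minus WT on log2(FPKM + 1), for the 11964 genes. The 219 genes of 6 mitochondrial lists (orange) lie mostly above the dashed line of equal effects, and Elovl3 and Cox7a1 stand at 4.13 and 3.05 in iWAT with -0.49 and 0.00 in liver.

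RNA of Hadha and Hadhb, which encode the trifunctional protein of mitochondrial beta-oxidation, rose in iWAT, with liver effects within 1 standard error of 0. Both genes are read outwards from a short common stretch of chromosome 5, so they share a promoter region. It is shown here with the bases before the start of 3 further genes whose contrast lay below 0 (Cycs, Acadvl, Cox7a1) and 2 with the same direction in both tissues (Letm1, Pdha1). Sequences are from RefSeq (GRCm38.p6), 5′ to 3′ on the strand of the gene (for Hadha and Hadhb the plus strand), ending at the base before the start. Capitals mark GC boxes (GGGCGG) and CCAAT boxes, the latter as ATTGG where they lie on the other strand.
Hadha and Hadhb, chr5:30155163-30155247: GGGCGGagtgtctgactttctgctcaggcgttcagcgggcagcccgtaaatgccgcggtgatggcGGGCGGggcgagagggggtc
Cycs, chr6:50566570-50566719: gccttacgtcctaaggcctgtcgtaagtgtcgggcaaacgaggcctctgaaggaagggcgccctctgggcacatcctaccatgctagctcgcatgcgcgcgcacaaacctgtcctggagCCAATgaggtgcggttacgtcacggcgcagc
Acadvl, chr11:70015429-70015578: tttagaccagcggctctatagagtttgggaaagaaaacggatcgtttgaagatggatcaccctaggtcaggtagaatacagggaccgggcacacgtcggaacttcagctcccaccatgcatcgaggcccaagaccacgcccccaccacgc
Cox7a1, chr7:30183994-30184143: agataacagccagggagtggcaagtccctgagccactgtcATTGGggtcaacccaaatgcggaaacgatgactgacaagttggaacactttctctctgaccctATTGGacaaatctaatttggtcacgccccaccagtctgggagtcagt
Letm1, chr5:33782818-33782967: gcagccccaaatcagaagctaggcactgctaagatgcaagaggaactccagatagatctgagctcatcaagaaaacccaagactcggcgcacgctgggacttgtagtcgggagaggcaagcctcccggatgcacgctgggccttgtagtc
Pdha1, chrX:160138431-160138580: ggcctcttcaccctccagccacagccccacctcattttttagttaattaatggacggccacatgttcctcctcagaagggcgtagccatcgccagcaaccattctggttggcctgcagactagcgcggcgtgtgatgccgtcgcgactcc

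The 85 bases between Hadha and Hadhb hold 2 GC boxes, Cycs 1 CCAAT box and Cox7a1 2, and no box of either kind lies in the 150 bases of Acadvl, Letm1 and Pdha1. Over windows of 250 bases before to 50 after the start, GC boxes lay in 55.4% of 130 windows of the genes with a contrast below 0 at an unadjusted p under 0.05, in 64.5% of 62 windows of genes higher without overlap in both tissues and in 65.9% of the 8466 windows of genes tested. CCAAT boxes lay in 45.4%, 43.5% and 39.0%. The palindromic site of the nuclear respiratory factor lay in 2.31%, 4.84% and 2.3%, and the core site of nuclear receptors (AAGGTCA) in 3.08%, 9.68% and 3.09%. Its extended form for estrogen-related receptors (TCAAGGTCA, which contains the core site) lay in 0.769%, 0% and 0.248%, and the direct repeat read by PPAR with RXR in 0%, 0% and 0.0472%. Both strands were searched, and all 32851 RefSeq windows held these 6 motifs in 35.7%, 37.4%, 0.971%, 4.72%, 0.423% and 0.0396%. A match is a run of letters and not a measured binding site.

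Hadha, the subunit with the hydratase and the long-chain dehydrogenase, stood at 27.7, 28.9 and 24.1 FPKM in WT iWAT and at 61.5, 52.8 and 48.9 in KO iWAT. In liver it stood at 60.4, 46.2 and 58.1 in WT and 51.3, 60.4 and 50.4 in KO. The iWAT groups were apart and the liver groups overlapped: the effect was 0.99 ± 0.14 in iWAT (limma adjusted p = 0.0238) and -0.02 ± 0.14 in liver. Hadhb, the thiolase subunit, stood at 30.5, 29.9 and 24.6 FPKM in WT iWAT and 77.6, 63.2 and 58.2 in KO iWAT. Its liver values were 34.5, 25.5 and 32.6 in WT and 26.7, 35.1 and 30.3 in KO. Hadhb thus rose in iWAT by 1.2 ± 0.16 (limma adjusted p = 0.0238), with a liver effect of -0.01 ± 0.16 and a contrast of -1.2 ± 0.22 (unadjusted p = 0.000265, limma adjusted p = 0.609).

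Acadvl, the dehydrogenase that opens the oxidation of long-chain acyl-CoA, stood at 39.6, 44.9 and 38.2 FPKM in WT iWAT and 87.2, 72.9 and 69.8 in KO iWAT, and at 103, 102 and 119 in WT and 112, 125 and 118 in KO liver. It rose in iWAT by 0.89 ± 0.12 (limma adjusted p = 0.0238), against 0.14 ± 0.12 in liver. Slc25a20, which exchanges acylcarnitine for carnitine across the inner membrane, stood at 13.1, 12.9 and 9.13 FPKM in WT and 23.7, 22.6 and 24.2 in KO iWAT. Its iWAT effect was 0.96 ± 0.15 (limma adjusted p = 0.0468) and its liver effect 0.19 ± 0.15. In both genes the liver effect was above 0 but within 2 standard errors of it.

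Genes that mark brown and beige fat gave the contrasts of largest size. Elovl3, an elongase of very long-chain fatty acids (ENSMUSG00000038754, chr19:46131897-46135307), stood at 0.0887, 0.385 and 0.155 FPKM in WT iWAT and at 43.0, 17.7 and 10.3 in KO iWAT. Liver expresses it without that pattern, with 62.7, 47.8 and 16.2 FPKM in WT and 20.1, 26.5 and 32.3 in KO. KO iWAT 1 and 2 thus came into the range of the livers, KO iWAT 3 lay below it, and the KO and WT livers overlapped. The contrast was -4.62 ± 0.74 (unadjusted p = 8.71e-05, limma adjusted p = 0.609, edgeR adjusted p = 0.0758, DESeq2 adjusted p = 5.99e-15), from an iWAT effect of 4.13 ± 0.53 (limma adjusted p = 0.0238) and a liver effect of -0.49 ± 0.53. Cox7a1, a subunit of cytochrome c oxidase made in muscle and brown fat, stood at 3.72, 4.71 and 3.54 FPKM in WT and 58.2, 36.5 and 30.2 in KO iWAT. In liver its highest value, 6.21 FPKM, was in WT liver 3, the library with muscle markers, and the other 5 held 0.860 to 3.49. Its contrast was -3.05 ± 0.59 (limma adjusted p = 0.609). Fabp3, the fatty acid-binding protein of heart and muscle, behaved alike, with 0.188 to 1.02 FPKM in WT iWAT and 44.0, 22.5 and 22.7 in KO iWAT. Its liver values were at most 0.378 outside WT liver 3 (10.4) and KO liver 2 (2.89), the 2 livers with the most muscle signal. KO iWAT 1, highest in iWAT for Cox7a1 and Fabp3, had muscle markers at 1.73, and KO iWAT 2 and 3 at 0.618 and 0.607. WT iWAT 2, with 4.71 FPKM of Cox7a1 and 1.02 of Fabp3, had them at 2.45. The part of muscle in the iWAT values was not tested. Of 25 listed thermogenesis genes 13 were measured in both tissues: 6 had a contrast below 0 at an unadjusted p under 0.05 and 0 above, and 3 were called in iWAT (Elovl3, Cox7a1 and Pank1). In iWAT 9 of the 13 were above 0 and 4 below, with effects from -0.59 to 4.31. By sign alone 8 contrasts lay below 0 and 5 above. For the shared effect 4 were higher and 1 lower at an unadjusted p under 0.05. The medians were -0.16 in liver and 0.31 in iWAT. Ucp1, the uncoupling protein itself, was under the level in liver (0.0991 FPKM at most) and so had no contrast. It stood at 0.027, 0.568 and 0.071 FPKM in WT iWAT and reached 157.5, 89.8 and 92.6 in KO iWAT.

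**Figure D2:**
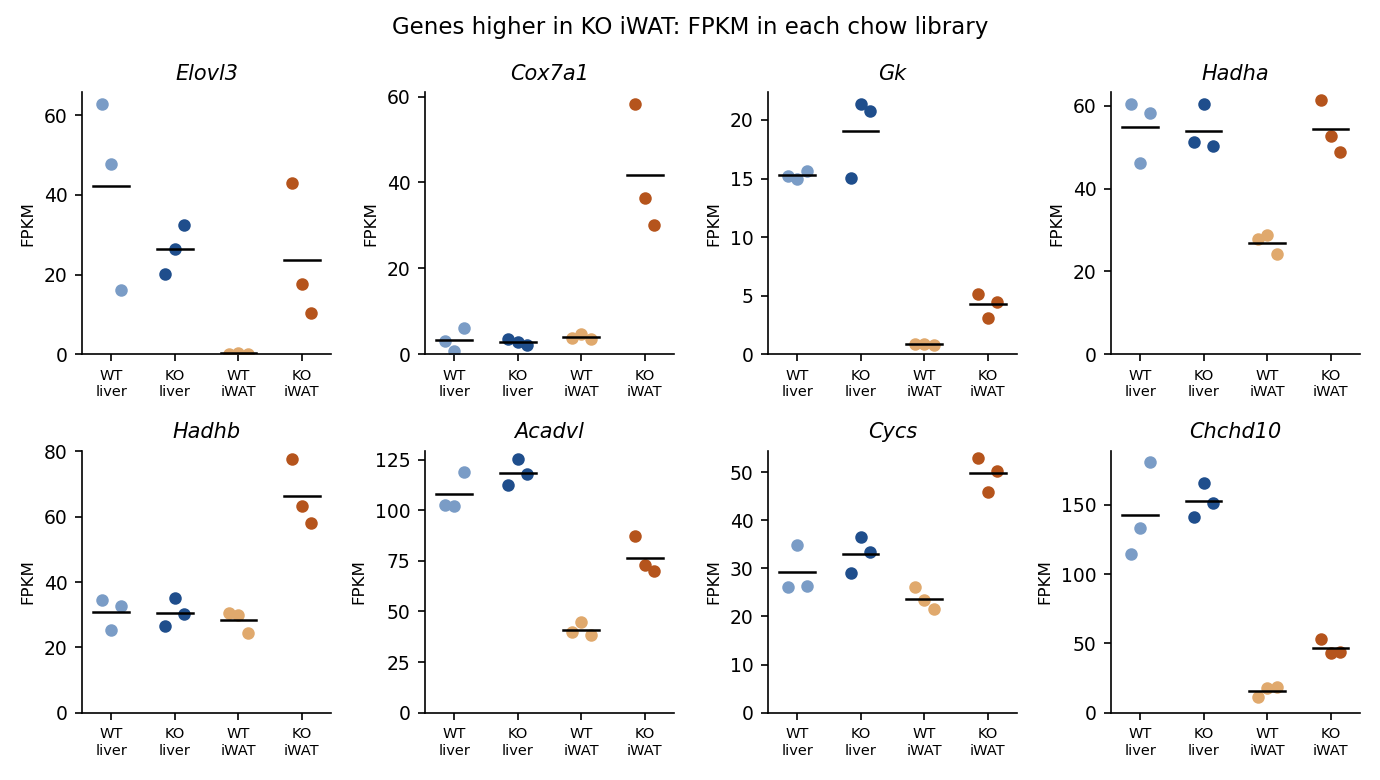
FPKM of 8 genes in each of the 12 chow libraries (points, vertical axis from 0, scaled per gene), with the group mean as a bar. KO iWAT lies above WT iWAT in all 8 panels, and the KO and WT livers overlap in each.

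Glycerol and pyruvate enzymes followed. Gk, glycerol kinase, which returns glycerol to triglyceride synthesis and is scarce in white fat (ENSMUSG00000025059, chrX:85701937-85776819), stood at 0.873, 0.845 and 0.83 FPKM in WT and 5.13, 3.13 and 4.49 in KO iWAT. WT livers held 15.2, 15 and 15.7 FPKM and KO livers 15, 21.4 and 20.8, so KO liver 1 lay level with WT. Gk rose in iWAT by 1.49 ± 0.15 (limma adjusted p = 0.0186), against 0.29 ± 0.15 in liver, and was the only gene besides Mrs2 called for the shared effect (0.89 ± 0.11, limma adjusted p = 0.0461; 1 gene higher and 1 lower, 0.00836% each), with a contrast of -1.2 ± 0.22. For the shared effect 2 genes (0.0167%) were called, with 930 (7.77%) at an unadjusted p under 0.05, 606 (5.07%) higher and 324 (2.71%) lower. edgeR called 3 (0.0251%) and DESeq2 108 (0.903%). Leaving out 1 library at a time left 0 to 5 genes called, and 0 without any of WT liver 1, 2 or 3, KO liver 2 or 3, WT iWAT 1 or 2, or KO iWAT 1. Cycs, cytochrome c, stood at 26.1, 23.4 and 21.5 FPKM in WT and 52.9, 45.9 and 50.3 in KO iWAT, and rose there by 1.04 ± 0.14 (limma adjusted p = 0.0238) against 0.18 ± 0.14 in liver. Chchd10, a protein of the intermembrane space, stood at 11.3, 18.1 and 18.7 FPKM in WT and 53.0, 42.8 and 44.1 in KO iWAT, and rose by 1.51 ± 0.21 (limma adjusted p = 0.0238). Its liver levels were 114 to 181 FPKM with an effect of 0.12 ± 0.21. Mpc1, a subunit of the mitochondrial pyruvate carrier, had a contrast of -0.93 ± 0.21 and was not called in iWAT (0.81 ± 0.15, limma adjusted p = 0.0866).

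The 10 named genes with a contrast above 0 had contrasts of 0.56 to 0.89. Of the 152 genes on this side at an unadjusted p under 0.05, 13 (8.55%) had effects of the same sign in both tissues. Among the 199 below 0 at that p it was 84 (42.2%), and among all genes 59.1%. Choosing genes by the difference of the effects itself favours opposite signs. Khk, ketohexokinase, the first enzyme of fructose use, stood at 176, 255 and 251 FPKM in WT and 320, 357 and 316 in KO liver, and at 8.11, 8.83 and 9.26 in WT and 8.18, 6.96 and 7 in KO iWAT. The livers did not overlap and the iWAT libraries did. The effects were 0.56 ± 0.14 in liver and -0.22 ± 0.14 in iWAT, with a contrast of 0.78 ± 0.20 (limma adjusted p = 1). Slc25a45, a mitochondrial carrier, had the largest contrast of the 10 named on this side, 0.89 ± 0.21, from 7.47, 10.2 and 6.95 FPKM in WT and 11.7, 12.4 and 13.2 in KO liver. Others drew their contrast from iWAT. Cdkn1c, an inhibitor of cyclin-dependent kinases, stood at 6.85, 7.03 and 9.17 FPKM in WT and 3.49, 4.90 and 3.71 in KO iWAT and at or below 0.954 in all livers, with an iWAT effect of -0.79 ± 0.15 (limma adjusted p = 0.0894). Tie1, an endothelial receptor, stood at 11.6, 12.6 and 10.6 FPKM in WT iWAT and at 8.57, 8.56 and 8.56 in KO iWAT. The 15 measured endothelial markers had a median of -0.19 in iWAT, with 2 above 0 and 2 lower at an unadjusted p under 0.05, and -0.00 in liver. Npr1, the receptor of natriuretic peptides, had effects of 0.24 ± 0.11 in liver and -0.32 ± 0.11 in iWAT.

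In liver alone KO lay above WT without overlap in 560 genes (4.68%) and below in 505 (4.22%), and in iWAT above in 783 (6.54%) and below in 584 (4.88%). They lay on the same side in both tissues in 86 genes higher in KO (0.719% of those tested) and 34 lower (0.284%). Paqr9, a receptor-like membrane protein, had similar values of its effect in the tissues: 39.3, 39.3 and 40.8 FPKM in WT and 56.7, 71.8 and 63.5 in KO liver, and 6.74, 7.31 and 6.46 in WT and 12, 15.5 and 10.4 in KO iWAT. Its effects of 0.67 ± 0.13 and 0.78 ± 0.13 gave a shared effect of 0.72 ± 0.09 (limma adjusted p = 0.0519, edgeR 0.0318), just outside the threshold of the main test. Elovl6, which lengthens palmitate to stearate, stood at 28.1, 32.6 and 33.1 FPKM in WT and 54.4, 53.3 and 47.9 in KO liver. In iWAT it stood at 20, 19.2 and 27.7 in WT against 101, 58.8 and 43.6 in KO, with a shared effect of 1.10 ± 0.18 (limma adjusted p = 0.119).

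Several of the shared genes serve mitochondria. Pank1, which starts coenzyme A synthesis, stood at 67.2, 71.5 and 86.0 FPKM in WT and 102, 104 and 93.9 in KO liver, and at 1.14, 2.25 and 1.82 in WT and 6.26, 4.73 and 4.30 in KO iWAT. It rose in iWAT by 1.16 ± 0.17 (limma adjusted p = 0.0284), and its liver effect was 0.42 ± 0.17. Gpd2, the mitochondrial glycerol-3-phosphate dehydrogenase, had a shared effect of 0.80 ± 0.12 (limma adjusted p = 0.106), from 6.2 to 7.67 FPKM in WT and 8.90 to 12.6 in KO liver and 10.5 to 15.7 in WT and 23.1 to 30.8 in KO iWAT. Letm1, an inner membrane protein of cation exchange, stood at 7.65, 8.78 and 7.45 FPKM in WT and 9.13, 10.6 and 11.7 in KO liver, and at 6.67, 5.80 and 5.53 in WT and 10.6, 9.23 and 9.64 in KO iWAT. Its effects were 0.35 ± 0.11 and 0.63 ± 0.11 and its shared effect 0.49 ± 0.08 (limma adjusted p = 0.111). Pdha1, a subunit of pyruvate dehydrogenase, ranged from 30.8 to 36.3 FPKM in WT and 38.7 to 43.2 in KO liver and from 55.2 to 71.1 in WT and 89.2 to 108 in KO iWAT. Apoo, of the complex that shapes cristae, and Pgk1, of glycolysis, completed the 8 named, and both rose in iWAT (0.73 ± 0.11 and 0.69 ± 0.10, limma adjusted p = 0.0413 and 0.0284). By the estimate alone all 8 had the larger effect in iWAT. Only Pank1, Apoo and Pgk1 reached an unadjusted p under 0.05 for the contrast.

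**Figure D3:**
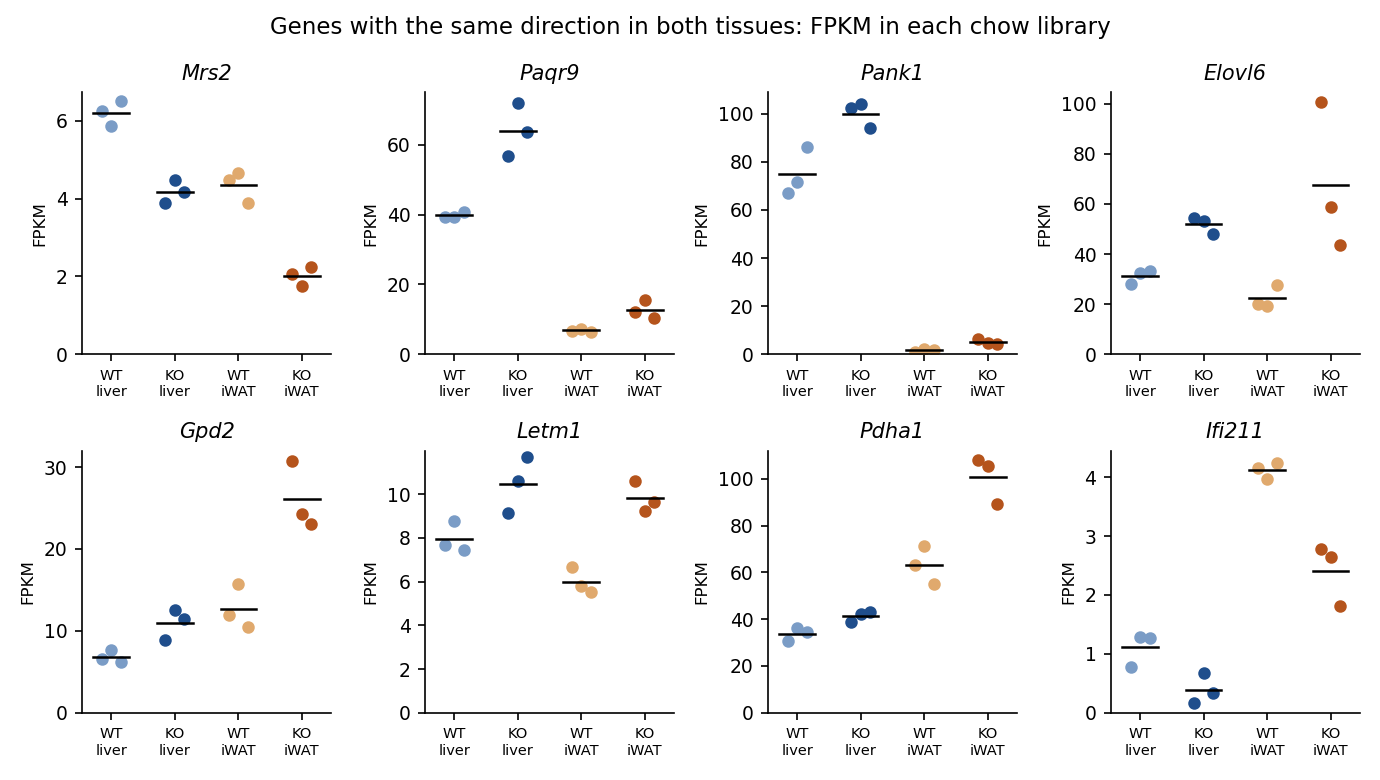
FPKM of 8 genes whose KO and WT libraries did not overlap in either tissue (points are libraries, bars group means, vertical axes from 0). Mrs2 and Ifi211 are lower in KO in both tissues and the other 6 higher.

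Among the 8 named genes lower in both tissues, Mrs2 and Ifi211 had the shared effects of largest size. Ifi211, an interferon-inducible gene, stood at 0.776, 1.29 and 1.27 FPKM in WT and 0.174, 0.667 and 0.327 in KO liver, and at 4.16, 3.96 and 4.25 in WT and 2.78, 2.65 and 1.82 in KO iWAT. Its effects were -0.61 ± 0.16 and -0.60 ± 0.16 (shared effect, limma adjusted p = 0.161). The matrix protein Chad, the cytokine Tnfsf12, the Polycomb ligase Ring1, the dystroglycan kinase Pomk, the retinoic acid receptor Rarg and the lysosomal sulfatase Galns had shared effects of -0.41, -0.39, -0.22, -0.32, -0.39 and -0.38, with standard errors of 0.06 to 0.11 and limma adjusted p-values of 0.256 to 0.436. Of 30 interferon response genes 25 were below 0 in liver and 29 in iWAT, with medians of -0.24 and -0.34, and 3 were lower at an unadjusted p under 0.05 for the shared effect (Usp18, Tap1 and Ifi44). The liver median was -0.01 without WT liver 2, where Tap1 stood at 17.8 FPKM against 4.02 to 6.30 in the other 5.

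Opposed effects without overlap in either tissue were fewer: 17 genes (0.142%) were higher in KO liver and lower in KO iWAT, and 11 (0.0919%) the reverse. Of these 28 genes 14 stayed under 3 FPKM in all group means, and only Pkm had an effect of at least 0.5 in both tissues. Pkm, the pyruvate kinase of tissues other than liver, stood at 6.18, 8.55 and 5.71 FPKM in WT and 4.88, 4.36 and 3.84 in KO liver. In iWAT it stood at 65.8, 61.9 and 62.1 in WT against 121, 110 and 81.6 in KO. Its effects were -0.53 ± 0.16 in liver and 0.69 ± 0.16 in iWAT, and the contrast of -1.22 ± 0.23 had a limma adjusted p of 0.609 and a DESeq2 adjusted p of 0.0013. Liver tissue makes its pyruvate kinase mainly from Pklr, and Pkm there also comes from cells other than hepatocytes. Macrophage markers averaged 3.86 in WT liver 2, the liver with the most Pkm, and 3.00 to 3.20 in the other 5, and their part in the liver effect was not tested. Fbxo31, an F-box protein, stood at 9.54, 13.4 and 15.1 FPKM in WT and 15.7, 17.1 and 20.2 in KO liver, and at 7.09, 6.94 and 5.51 in WT and 4.85, 4.89 and 4.64 in KO iWAT, with a contrast of 0.83 ± 0.22. Plscr2, Fbf1, Fbxo45, Ets2, Rab29, Tmem63a and Zhx2 were likewise higher in liver and lower in iWAT, with contrasts of 0.35 to 0.83, and Lsm7 the reverse (-0.49 ± 0.18). Neither direction had a gene called by limma.

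By list, most respiratory chain subunits were higher in KO than in WT iWAT and, by less, in liver. All 36 nuclear subunits of complex I were measured in both tissues: 36 were above 0 in iWAT (29 at an unadjusted p under 0.05) and 34 in liver (2 at that p), with medians of 0.41 and 0.13. The contrast lay below 0 in 35, and in 10 at an unadjusted p under 0.05. Ndufa1 was the member with the smallest p for the shared effect (0.40 ± 0.09), from 109 to 127 FPKM in WT and 129 to 148 in KO liver and 79.1 to 102 in WT and 127 to 136 in KO iWAT. Of 39 subunits of complexes II to V, 38 were above 0 in liver and 37 in iWAT, with medians of 0.13 and 0.45, and 14 had a contrast below 0 and 1 above 0 at an unadjusted p under 0.05. The exception was Atp5g1, a subunit of the ATP synthase ring, with 4.83, 4.14 and 4.27 FPKM in WT and 3.28, 4.02 and 3.46 in KO iWAT (-0.24 ± 0.09, limma adjusted p = 0.708) and an effect of 0.05 ± 0.09 in liver, a gene named after its values were seen. Uqcrq, of complex III, had effects of 0.23 ± 0.13 in liver and 0.76 ± 0.13 in iWAT. Over all 11964 genes the medians were 0.01 in liver, -0.01 in iWAT and 0.01 for the contrast, with 51.9% of genes above 0 in liver and 47.6% in iWAT. At an unadjusted p under 0.05, 3.96% of all genes were higher in iWAT, 2.32% were higher in liver and 1.66% had a contrast below 0.

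The citric acid cycle, fatty acid oxidation and mitochondrial translation lists lay in the same direction. Of 24 cycle and pyruvate genes 24 were above 0 in iWAT (20 at an unadjusted p under 0.05) and 20 in liver (4 at that p), with medians of 0.64 and 0.13, and 13 had a contrast below 0 at that p. Pdhb, of pyruvate dehydrogenase, stood at 35.5, 46.0 and 45.5 FPKM in WT and 55.3, 58.5 and 62.0 in KO liver, with effects of 0.47 ± 0.16 in liver and 0.73 ± 0.16 in iWAT. Of 30 fatty acid oxidation genes 29 were above 0 in iWAT, 4 of them called (Hadha, Hadhb, Acadvl and Slc25a20), and 25 in liver with none at an unadjusted p under 0.05. Their medians were 0.51 and 0.11, and the liver median was -0.01 without KO liver 2. The 77 genes of mitochondrial ribosome proteins had medians of 0.19 and 0.06, with 22 higher in iWAT and 2 in liver at an unadjusted p under 0.05. Over all genes 3.96% were higher in iWAT and 2.32% in liver at that p, and the 2 of 77 lay near that liver share. Without KO liver 2 the liver medians were 0.08 for complex I, 0.07 for complexes II to V and 0.03 for the mitochondrial ribosome. The contrast median of these lists (-0.13 to -0.40) kept its sign in each of the 26 settings tried.

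**Figure D4:**
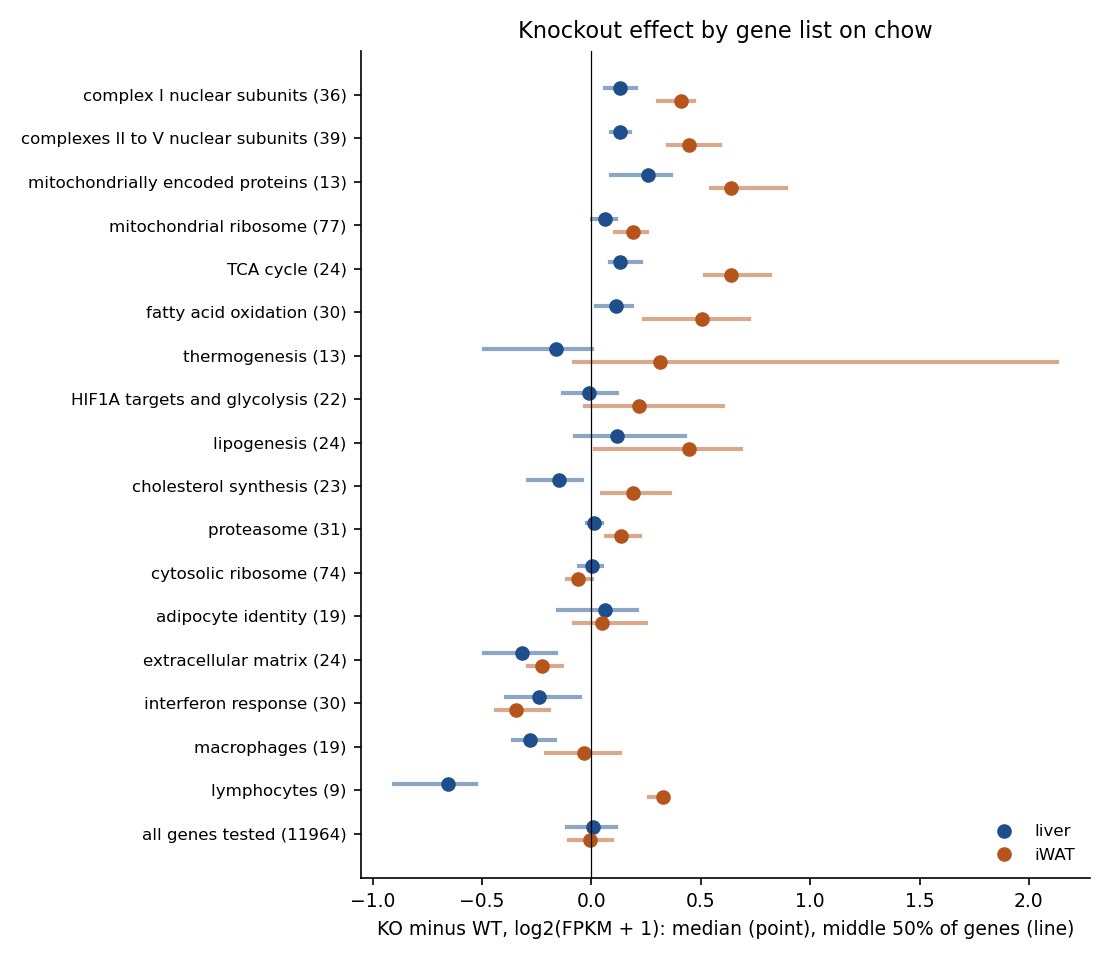
Median knockout effect (point) and middle 50% of members (line) of 17 gene lists and of all genes tested, in liver (blue) and iWAT (orange), KO minus WT on log2(FPKM + 1), with the number of members measured. The iWAT point lies to the right of the liver point in all 6 mitochondrial lists.

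Genes encoded in the mitochondrial genome took 3.79% ± 0.219 of reads (SD, n = 3) in WT liver and 4.23% ± 0.564 in KO liver, and 4.21% ± 0.587 in WT iWAT and 6.12% ± 0.389 in KO iWAT. The livers overlapped (3.66% to 4.04% and 3.71% to 4.83%) and the iWAT libraries did not (3.54% to 4.63% and 5.85% to 6.56%). The contrast was -1.46 percentage points (exact two-sided permutation p = 0.135 over 400 relabellings with the tissues apart). These relabellings assume no effect in either tissue and so cannot test equal effects. With equal numbers relabelled together the contrast had an exact permutation p of 0.1, the smallest possible. The difference was 0.441 points in liver (exact p = 0.2) and 1.91 in iWAT (exact p = 0.1, the smallest that 3 against 3 allows), and their mean was 1.17 points (exact permutation p = 0.01 with the tissues relabelled apart, and 0.1 with equal numbers relabelled together, the smallest that allows). Libraries were captured on poly-T beads, so these RNAs are sampled only as far as they carry a tail. The 13 mitochondrially encoded protein genes had medians of 0.26 in liver and 0.64 in iWAT, with 9 higher in iWAT and 0 in liver at an unadjusted p under 0.05. Without KO liver 2 their liver median was 0.08, and the liver difference in the share of reads 0.141 points.

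**Figure D5:**
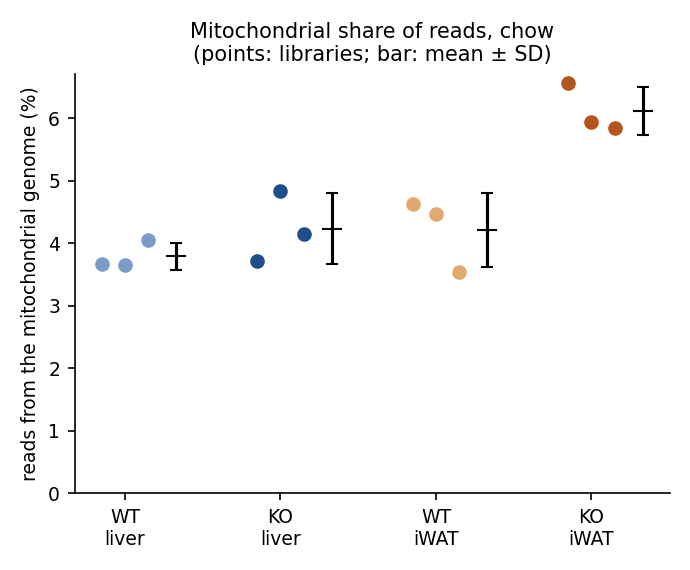
Percent of reads from the mitochondrial genome in each chow library (points), with mean ± SD per group beside them, on an axis from 0. KO iWAT lies at 5.85% to 6.56%, above the other 9 libraries.

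Lipid and sugar lists were split. Of 24 lipogenesis genes 19 were above 0 in iWAT and 13 in liver, with medians of 0.45 and 0.11, and 5 were higher at an unadjusted p under 0.05 for the shared effect. The iWAT median was 0.05 without WT iWAT 3, and the liver median 0.03 without KO liver 1 and 0.31 without KO liver 3. Me1, malic enzyme, which supplies NADPH, had equal effects (0.87 ± 0.27 in each tissue), from 28.2, 36.6 and 51.7 FPKM in WT and 85.1, 80.4 and 49.0 in KO liver and 164, 150 and 113 in WT and 316, 259 and 210 in KO iWAT. KO liver 3 lay inside the WT range of Me1. The 23 measured cholesterol synthesis genes had medians of -0.15 in liver and 0.19 in iWAT, none at an unadjusted p under 0.05 in either, and the liver median was 0.17 without WT liver 1. Among lipid droplet genes Plin5, which ties droplets to mitochondria, rose in iWAT by 1.84 ± 0.29 (limma adjusted p = 0.0468), from 6.33, 8.47 and 4.64 to 27.3, 27.9 and 21.0 FPKM, with a liver effect of 0.28 ± 0.29. Lpl, lipoprotein lipase, went the other way: it stood at 6.21, 4.27 and 3.86 FPKM in WT and 1.97, 1.45 and 2.56 in KO liver (-0.94 ± 0.21, limma adjusted p = 0.945) and at 485 to 764 in all iWAT libraries (0.03 ± 0.21). Of 22 glycolysis genes and HIF1A targets, 7 had a contrast below 0 at an unadjusted p under 0.05 and 0 above, with medians of -0.01 in liver and 0.22 in iWAT. Pfkl, phosphofructokinase, stood at 12.4, 16.4 and 11.6 FPKM in WT and 29.2, 23.0 and 21.9 in KO iWAT (0.83 ± 0.16, limma adjusted p = 0.0894) and at 7.41 to 10.1 in liver.

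Matrix and immune lists lay below 0 in liver, and some moved with single libraries. Of 24 extracellular matrix genes 21 were below 0 in liver and 23 in iWAT, with medians of -0.32 and -0.22, none at an unadjusted p under 0.05, and the iWAT median was 0.26 without KO iWAT 3. The 8 measured fibroblast and stellate cell markers had medians of -0.33 and -0.23, with 2 lower in liver at an unadjusted p under 0.05. Over all 15 listed, their level was 1.82 to 2.03 in WT and 1.60 to 1.75 in KO livers, and its part in the matrix values was not tested. The 9 measured lymphocyte markers had medians of -0.65 in liver and 0.33 in iWAT, again with none at that p, and the iWAT median was -0.25 without WT iWAT 2 and -0.19 without KO iWAT 3. Of 19 macrophage markers 1 was above 0 in liver and 8 in iWAT, and the liver median of -0.28 was 0.03 without WT liver 2. Adipocyte identity genes had medians of 0.06 in liver and 0.05 in iWAT (-0.12 without KO iWAT 2), and 31 proteasome genes 0.01 and 0.13, with 9 of them higher in iWAT at an unadjusted p under 0.05. Of 74 cytosolic ribosome genes the medians were 0.00 and -0.06 (0.12 in iWAT without WT iWAT 3). Rps2 in this list stood at 302, 315 and 348 FPKM in WT and 164, 167 and 288 in KO liver and at 189, 155 and 201 in WT and 89.3, 80.2 and 195 in KO iWAT, so that KO 1 and 2 were low in both tissues. Its processed copy Rps2-ps10 was high in those same 4 libraries (90.1 to 216 FPKM against 6.14 to 16.1 in the other 8). Reads of such near-identical copies may be split between them, which was not tested.

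Across all genes the effects shared direction more often than not. Both had the same sign in 7071 of 11964 genes (59.1%) and opposite signs in 4893. With a size of at least 0.5 in both tissues, 152 genes agreed in sign (52 higher, 100 lower) and 38 did not. That 38 was 58, 78 and 80 without WT liver 3, WT iWAT 3 and KO iWAT 2. With an unadjusted p under 0.05 in both, 41 agreed and 9 did not. Pearson's r between the effects across genes was 0.33 and Spearman's rho 0.25, over genes that share libraries and are not independent. Leaving out 1 library gave r of 0.18 to 0.41. Without the 219 genes of the mitochondrial lists r was 0.33, and without the 34 genes whose libraries fell into 2 levels on the same numbers it was 0.26. These 34 included 13 of the 25 genes with a shared direction and a size of at least 1 in both tissues, and 23 of the 152 above. The effects of the tissues share no library, but equal numbers may share a mouse, and the part of differences between mice in the shared direction was not tested.

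The sign in the other tissue was counted for genes chosen in 1 tissue, beside the 59.1% of all genes with equal signs. Of 474 genes higher in KO iWAT at an unadjusted p under 0.05 (3.96%), 389 (82.1%) were above 0 in liver, with medians of 0.44 in iWAT and 0.11 in liver. Of 179 lower (1.5%), 116 (64.8%) were below 0 in liver. Chosen in liver, 176 of 277 higher genes (63.5%) and 167 of 240 lower genes (69.6%) had the same sign in iWAT. Of the 277, 26 had the larger effect in iWAT. The medians of the 277 were 0.41 in liver and 0.06 in iWAT, and those of the 240 were -0.43 and -0.08. Choosing genes by p in 1 tissue favours the larger effect in that tissue, so these medians do not compare the tissues. The first share lay farthest from that over all genes, and the others, at 63.5% to 69.6%, were also above it. The 59.1% is not split by direction. Genes of the 6 mitochondrial lists made up 1.83% of the genes tested, 24.4% of the 86 shared higher genes, 0 of the 34 shared lower genes and 24.1% of the 199 genes with a contrast below 0 at an unadjusted p under 0.05. They were thus counted both among genes that share direction and among those whose effect was larger in iWAT, and only 1 of them was among the 152 with a contrast above 0.

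By position, 7 of 342 tested genes of chromosome X were shared higher genes (2.05%), the highest share of 20 chromosomes: Apoo, Pgk1, Pdha1, Cox7b, Ndufa1, Map3k15 and Eif1ax, 5 of them of mitochondria or glycolysis. Around Mrs2, 0 of 12 genes within 1 Mb and 8 of 61 within 10 Mb (13.1%) reached an unadjusted p under 0.05 for the shared effect, against 7.77% of all. Gm11361 was the gene with the largest of these effects (2.46), at 75.9 and 86.4 FPKM in KO livers 1 and 2 and 60.2 and 59.4 in KO iWAT 1 and 2, and at 2.69 to 10.4 in the other 8 libraries.

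In the authors' deposited tables of KO against WT on chow, which list genes with an unadjusted p under 0.05, 60 genes stood in both the liver table (776 listed) and the iWAT table (876 listed), which is 7.73% and 6.85% of them. Of these 60, 48 had the same sign (32 higher, 16 lower) and 12 opposite signs in the authors' deposited tables. Over all 11964 genes the estimates here had equal signs in 59.1%, a share not limited to genes under that p. At the authors' adjusted p under 0.05 stood 10 genes in liver (6 higher, 4 lower) and 104 in iWAT (95 higher, 9 lower). Among the 10 were Elovl6, Paqr9 and Lpl (authors' adjusted p = 0.00671, 0.012 and 0.0163), whereas limma called 0 genes in liver.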

How the data were processed

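The 12 RNA-seq libraries of chow-fed mice (liver and iWAT, WT and KO, 3 each) were analysed, and the Western diet libraries were not analysed here except as 1 alternative. The deposited table gives FPKM per gene, made by the authors, and names gene lengths in bases. HISAT2 2.0.5, DESeq2 1.20.0 and the build mm10 stand in the submitters' processing notes, without the role or settings of each. The authors' deposited tables also give read counts, log2 fold changes and p-values for genes with an unadjusted p under 0.05.

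FPKM values were turned into log2(FPKM + 1) and fitted with limma 3.58.1 (trend, robust, 4 groups in 1 fit) in R 4.3.3, with Benjamini-Hochberg adjustment over 11964 genes and a threshold of 0.05. All 270588 values above 0 were whole multiples of 1 read (100%, tolerance 0.01), and 9912 of 9912 deposited counts equalled the reads so recovered. On these reads edgeR 4.0.16 called 0, 3, 0 and 38 genes for the contrast, the shared effect, liver and iWAT, and DESeq2 1.42.0 16, 108, 9 and 154. The tests were tried on simulated data. Tables and figures used Python 3.11.15, pandas 2.3.3, numpy 2.4.6 and matplotlib 3.10.9.

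Members, gene lists and the comparison itself were chosen with earlier results of these data known. Named genes were Mrs2, then, among genes with a mean of at least 3 FPKM in 1 group and a symbol that is no model name, up to 10 per direction by p for the contrast, up to 8 per direction by p among genes without overlap in both tissues (same and opposed), and up to 4 per list by p. Genes named for other reasons (Rpl29, H2-Ea-ps, Gm11361, Rps2-ps10, Ucp1, Gpld1, Atp5g1 and the genes of chromosome X) were chosen after their values were seen. A further 92 columns of the tables were not used. In 27 rows the symbol had been turned into a date. Gene coordinates are those of the deposited table. Equal numbers of WT and KO were not taken as pairs in the main tests, whereas the block of tissue and number does pair them.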

Additional observations from a re-analysis of the deposited data

Results flagged for a closer look

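Pancreas acinar markers averaged 6.17 on the log2(FPKM + 1) scale in KO liver 1, against 0.353 in the highest of the other 11 libraries. Of the 17 listed, 1 was measured in both tissues and so was among the genes tested, with a liver effect of 1.85. Ucp1, under the expression level in liver and so outside the contrast, had a mean of 113 FPKM in KO iWAT against 0.222 in WT iWAT.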

How the results depend on the processing

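For the contrast, 6 genes were called with no expression filter (32040 tested) and 16 by DESeq2. For the shared effect, 7 were called with no filter, 5 at a mean of at least 5 FPKM (4664 tested), 1 in a fit of all 24 libraries, 1 with library weights, 4 without both iWAT libraries numbered 3, 0 without KO liver 1 and WT liver 3, 108 by DESeq2, and 0 to 5 with 1 library left out. In liver, 9 were called with no filter and 9 by DESeq2. In iWAT, 33 were called with no filter, 35 at 5 FPKM, 3 in all 24 libraries, 164 with library weights, 38 by edgeR, 154 by DESeq2, 1 without both iWAT libraries numbered 3, 4 without KO liver 1 and WT liver 3, and 0 to 17 with 1 library left out. Opposed effects of at least 0.5 in both tissues numbered 61 without both iWAT libraries numbered 3, 63 without KO liver 1 and WT liver 3, and 38 to 80 with 1 library left out (58, 78 and 80 without WT liver 3, WT iWAT 3 and KO iWAT 2). The cause of these shifts was not tested. The Mrs2 shared effect was -0.62 to -0.68 with 1 library left out and -0.62 without KO liver 1 and WT liver 3, past the threshold in some of these fits only. With the replicate block of tissue and number, 0 genes were called for the shared effect (smallest limma adjusted p = 0.157), 0 in iWAT (0.0812) and 0 for the contrast (0.745), and with the block by animal 0 for the shared effect (0.131) and 0 for the contrast (0.615), the Mrs2 estimate remaining -0.65. Deviations of equal numbers across tissues correlated at 0.0363 to 0.218 in WT and 0.155 to 0.257 in KO, and those of unequal numbers at -0.197 to 0.0326, a hint from the data and not the design. Equal numbers of WT and KO iWAT, which are different mice, correlated at 0.0673 to 0.359 (unequal -0.314 to 0.251). In liver these were -0.124 to 0.13 (unequal -0.141 to 0.222). Deviations sum to 0 within a group, so equal and unequal numbers are not independent. Of 1073 values of 42 gene results over 26 settings, 1031 kept direction and side of the threshold, 30 passed it newly, 12 no longer passed and 0 reversed, and 15 of 36 lists kept the sign of their contrast median, and 7 that of all 4 medians, in every setting. With 3 libraries a group the median standard error of a contrast was 0.21, which limits what could be called.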
